A study of Mus musculus with 8 samples.

Results

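Plxdc2 encodes a membrane protein with a plexin-like domain outside the cell and a single membrane-spanning segment. Methylated cytosines of that gene were listed in RNA of mouse mast cells lacking Tet2. All listed positions on chromosome 2 from 16355740 to 16761132 of build GRCm38, the RefSeq span of Plxdc2, were taken. They came to 159 of the 8492 sites in the deposited table (1.87%) and to 159 of the 357 sites on chromosome 2 (44.5%). The span was chosen because the table was known to hold sites in it, and the authors had themselves picked its sites as specific to cells without Tet2, so the number of sites and their levels are given as a description with no test.

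The cells were bone marrow derived mast cells, cultured from C57BL/6 femur marrow with IL-3 and SCF and stained for FcɛRI and c-Kit. The genotype label of the libraries used here is Tet2-/-, with no cell type or promoter named for the deletion, and the labels do not say whether biological replicates came from separate mice. Of 8 labelled libraries, 4 were wild type and 4 were Tet2-/-, in both cases as 2 technical replicates of each of 2 biological replicates. The levels analysed here come from the 4 Tet2-/- libraries, called 1a and 1b for biological replicate 1 and 2a and 2b for biological replicate 2. The wild-type libraries were not analysed here, and nothing that follows compares genotypes.

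Plxdc2 and its relative Plxdc1 are cell surface receptors for pigment epithelium-derived factor, a secreted anti-angiogenic protein encoded by Serpinf1. Plxdc2 is best known from blood vessels of tumours and from the developing nervous system. Tet2 oxidises 5-methylcytosine, which in RNA is written by methyltransferases of the NSUN family and by Dnmt2. Bisulfite converts unmodified cytosine to uracil. The methylation level of a position is therefore the proportion of reads with cytosine left in that place, and cytosine that escaped conversion would add to it. Read numbers were not analysed, and the exact depth of each level is unknown. Many levels took values that a few reads can give, such as 62.5%, 28.6%, 37.5% and 33.3% at site 16628116. Single levels may therefore rest on few reads. The table lists no level below 10%, so cytosines of the gene with lower levels cannot be seen in it.

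The 159 sites occupied 3 short stretches of a long gene. With sites up to 500 bases apart joined, the stretches covered 1713 bases, which is 0.423% of the 405393 bases of the span. Stretch 1 held 20 sites from 16628116 to 16628366, stretch 2 held 37 sites from 16676779 to 16677483, and stretch 3 held 102 sites from 16681826 to 16682582. They began 67.2%, 79.2% and 80.4% of the way along the span from its low-coordinate end. Stretches 1 and 2 were 48413 bases apart, and stretches 2 and 3 were 4343 bases apart. Exons, introns, untranslated regions, the strand of the sites and the bases around them were not analysed here, and whether the stretches lie in the mature transcript was not examined.

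No other RefSeq gene span overlapped that of Plxdc2. The nearest listed site below the span was at 5019958, 11.3 Mb away, with a mean level of 29.7%, and the nearest above it was at 52623627, 35.9 Mb away, with a mean level of 35.0%. The outermost sites inside the span were at 16628116, 272.4 kb from its low-coordinate end, and at 16682582. The neighbouring spans had 0 listed sites, both the nearest ones (the pseudogene Gm13319 and the long noncoding RNA 4930515L03Rik) and the nearest coding genes (Malrd1 and Nebl, which encodes the actin-binding protein nebulette).

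Sites were crowded within each stretch. A listed neighbour lay within 10 bases of 154 of the 159 sites (96.9%), against 93.7% over the whole table. The median distance to the next site of the stretch was 4 bases, and 42 of 156 such distances were a single base, 29 of them in stretch 3. Stretch 3 was the densest, with 13.5 sites per 100 bases, and stretches 1 and 2 had 7.97 and 5.25. The median over the 146 regions of 10 or more sites in the table was 11.1 sites per 100 bases, and 51 of those regions were denser than stretch 3.

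The mean level over the 159 sites was 53.2% in library 1a, 50.8% in 1b, 48.3% in 2a and 60.4% in 2b. Library 2b was the highest and 2a, its technical partner, the lowest, so the widest gap lay inside a biological replicate. With technical replicates averaged, the gene stood at 53.2% ± 1.67 (SD, n = 2), from 52.0% in biological replicate 1 to 54.3% in replicate 2. Over the whole table the same libraries stood at 53.7%, 49.5%, 49.9% and 53.8%. Among the 53 genes with 10 or more sites, whose median level was 48.2%, Plxdc2 ranked at position 19 by level and at position 17 by the range of its libraries.

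Single sites ranged widely around that mean. Site means over the 4 libraries ran from 19.9% to 93.1%, with a median of 52.0% and with the middle 50% between 41.7% and 62.9%. Single values in a library ran from 11.8% to 100%. At 46 of the 159 sites (28.9%) every library read 50% or more, against 33.6% of sites in the whole table, and at 20 sites (12.6%) every library was under 50%, against 31.4% in the whole table. At 18 sites at least 1 library read 100%, 14 of them in stretch 1, against 1416 of the 8492 sites in the whole table. All 4 libraries read 100% at 0 sites, against 0.836% of sites in the whole table. All 4 were under 20% at 0 sites, against 2.45%.

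Stretch 1 stood well above stretches 2 and 3. Its mean level was 90.3% in library 1a, 79.6% in 1b, 74.1% in 2a and 74.8% in 2b. Both libraries of biological replicate 1 lay above both of replicate 2, and the stretch stood at 79.7% ± 7.39 (SD, n = 2). Stretch 2 stood at 44.8%, 46.4%, 40.9% and 60.5% in libraries 1a, 1b, 2a and 2b. Here library 2b was high and the other 3 lay close together, and the mean was 48.2% ± 3.63 (SD, n = 2). Stretch 3 stood at 48.9%, 46.7%, 45.9% and 57.5% in the same order, again with 2b the highest, and its mean was 49.8% ± 2.74 (SD, n = 2).

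The 4 values of stretch 1 did not overlap those of stretch 2 or stretch 3. Stretch 1 exceeded stretch 2 in all 4 libraries, by 45.5 points in 1a, 33.2 in 1b, 33.2 in 2a and 14.3 in 2b, a mean difference of 31.5 ± 11.02 points (SD, n = 2). Stretches 2 and 3 differed by 1.61 ± 0.894 points (SD, n = 2), with stretch 3 higher in 3 of 4 libraries and 2.98 points lower in 2b, and the levels of their libraries overlapped. Of the 146 regions of 10 or more sites, 16 had a level above stretch 1 and 63 above stretch 3. Among 30 genes with at least 2 such regions, the spread of 31.5 points between the highest and lowest region put Plxdc2 at position 7, where the median spread was 18.9 points. Only 12 of the 30 genes, Plxdc2 among them, had 3 or more such regions, and a spread tends to widen with the number of regions.

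**Figure D1:**
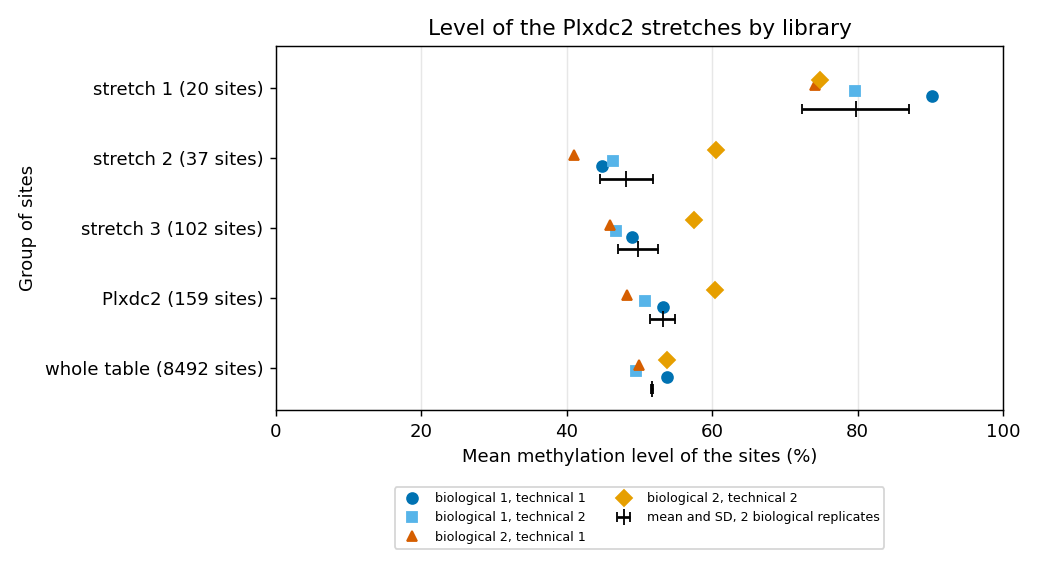
Mean methylation level (horizontal axis, percent) for each Plxdc2 stretch, for all 159 sites and for the whole table; coloured symbols are the 4 Tet2-/- libraries, and the black tick and bar are the mean and SD of 2 biological replicates. Stretch 1 lies between 74.1% and 90.3%, above every library of stretches 2 and 3, where biological replicate 2, technical replicate 2 is the highest.

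Stretch 1 ended in a compact block, which had the highest mean of its clusters. Sites up to 50 bases apart were joined into clusters, of which stretch 1 had 3. The 5 sites from 16628116 to 16628154 stood at 65.1% ± 2.43, the 2 sites at 16628215 and 16628217 at 77.5% ± 19.7, and the 13 sites from 16628330 to 16628366 at 85.7% ± 9.27 (SD, n = 2 for each). All 13 sites of the last cluster were at 50% or more in every library. Its libraries stood at 94.5% in 1a, 89.9% in 1b, 76.4% in 2a and 81.8% in 2b, beside 78.2%, 48.6%, 75% and 58.7% in the first cluster and 92.9%, 90%, 57.1% and 70% in the pair of sites between them. Library 2a was thus lower in the middle cluster and similar in the first and last, and 1b was nearly level over the last 2 clusters. At 9 of the 13 sites of the block both libraries of replicate 1 were above both of replicate 2, against 14.7% of sites in the whole table. The 13 sites lay within 37 bases, so they are not separate observations of that order.

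The highest site of the gene lay in that cluster. Site 16628364 read 85.7% in 1a, 100% in 1b, 86.7% in 2a and 100% in 2b, a mean of 93.1% ± 0.337 (SD, n = 2). The lowest site of the stretch was its first, 16628116, at 62.5% in 1a, 28.6% in 1b, 37.5% in 2a and 33.3% in 2b, where library 1a stood apart from the other 3. Of 15 pairs of sites that followed each other within 10 bases in stretch 1, 4 had the same level in each of the 4 libraries, taking levels within 1e-06 points as the same. In stretches 2 and 3 there were 0 such pairs among 29 and 82, and 436 among 6597 (6.61%) over all sites of the table.

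**Figure D2:**
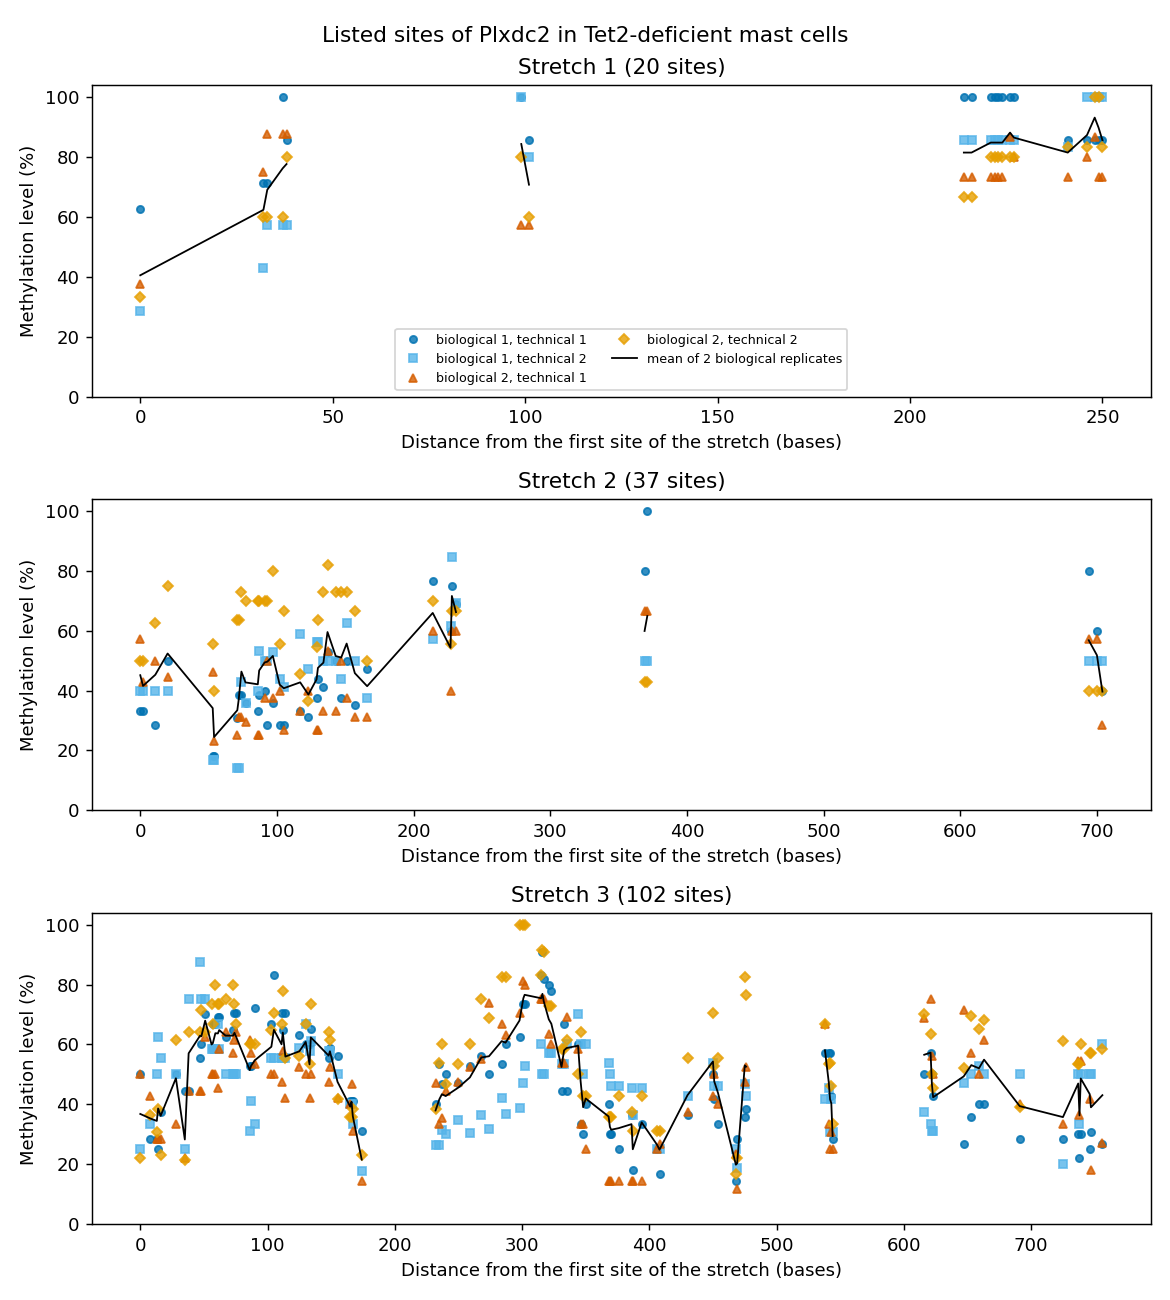
Methylation level in percent (vertical axis) of each listed Plxdc2 site against its distance in bases from the first site of its stretch (horizontal axis), in 3 panels; coloured symbols are the 4 Tet2-/- libraries and the black line joins the site means within clusters. Stretch 1 ends in a block at 85.7%, library 2b stands above the others in the first part of stretch 2, and stretch 3 rises and falls along its length.

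In stretch 2 the library order changed along the sequence. Its first 28 sites, from 16676779 to 16676945, stood at 36.4% in 1a, 42.6% in 1b, 36.4% in 2a and 63.4% in 2b. Library 2b was the highest library at 24 of these 28 sites, against 26.8% of sites in the whole table; ties are not counted as highest or lowest here or elsewhere. The next 4 sites, from 16676993 to 16677010, stood at 70.1%, 68.1%, 55% and 64.7% in 1a, 1b, 2a and 2b, so that 2b no longer led. The last 5 sites, from 16677148 to 16677483, stood at 72%, 50%, 55.2% and 41.1%. Library 2b was the lowest at 4 of these 5 sites, against 17.4% of sites in the whole table. The first 28 sites lay within 167 bases and the last 5 in clusters of 2 and 3 sites. In both cases the sites are not separate observations of the order.

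The extremes of stretch 2 lay in its first cluster of 32 sites. Site 16677007 was the highest, with 75% in 1a, 84.6% in 1b, 60% in 2a and 66.7% in 2b. Site 16676833 was the lowest, with 18.2% in 1a, 16.7% in 1b, 23.1% in 2a and 40% in 2b. The ranges of these sites did not overlap, which follows largely from their choice as the highest and lowest of the stretch. Site 16677006, directly before the highest site, was lower in all 4 libraries, with a mean of 54.3% against 71.6%; this pair was chosen after its values were seen.

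Stretch 3 held most of the sites of the gene and had a profile with 2 rises. In windows of 50 bases counted from its first site, leaving out windows with fewer than 5 sites, the mean level was 44.1% in the first window and 60.9% and 59.3% in the next 2. It then fell to 37.0% in the window from 16681976 to 16682025, and the fall was present in all 4 libraries, by 14.4 to 29.7 points. Levels were at 56.6% from 16682076 to 16682125 and at 63.8% from 16682126 to 16682175, then fell to 33.3% from 16682176 to 16682225, again in all 4 libraries. The upward steps before the first and the second rise were present in 3 of 4 libraries, the exception each time being 1b, which differed by -1.52 and -0.305 points. From 16682276 onward the windows with at least 5 sites lay between 41.7% and 50.5%.

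The second rise held the highest site of the stretch, and the lowest lay beyond it, after the second fall. Site 16682142 stood at 90.9% in 1a, 50% in 1b, 75% in 2a and 91.7% in 2b, a mean of 76.9% ± 9.11 (SD, n = 2). Library 1b was the lowest of the 4 there. Site 16682294 stood at 14.3%, 25%, 23.5% and 16.7% in 1a, 1b, 2a and 2b, a mean of 19.9% ± 0.322 (SD, n = 2), which was the lowest mean of all 159 sites. Its level did not extend far: site 16682295 had a mean of 20.3% and site 16682301, 6 bases on, a mean of 53.0%, higher in all 4 libraries. That step was the largest between following sites within 10 bases in the gene.

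The single sites with the narrowest and the widest range of libraries also lay in stretch 3, which held 102 of the 159 sites. Over whole stretches, agreement between technical partners was loosest in stretch 2. They differed there by 18.6 points on average, against 13.6 in stretch 1 and 14.7 in stretch 3. Site 16681991 had the narrowest range of the 159 sites, with 41.2% in 1a, 40% in 1b, 40% in 2a and 35.7% in 2b. Site 16682124 had the widest, with 62.5% in 1a, 38.9% in 1b, 70.6% in 2a and 100% in 2b. It also had the widest gap between biological replicates, at 50.7% and 85.3%. Both libraries of replicate 2 were above both of replicate 1 at that site, which follows largely from its choice for the widest gap.

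**Figure D3:**
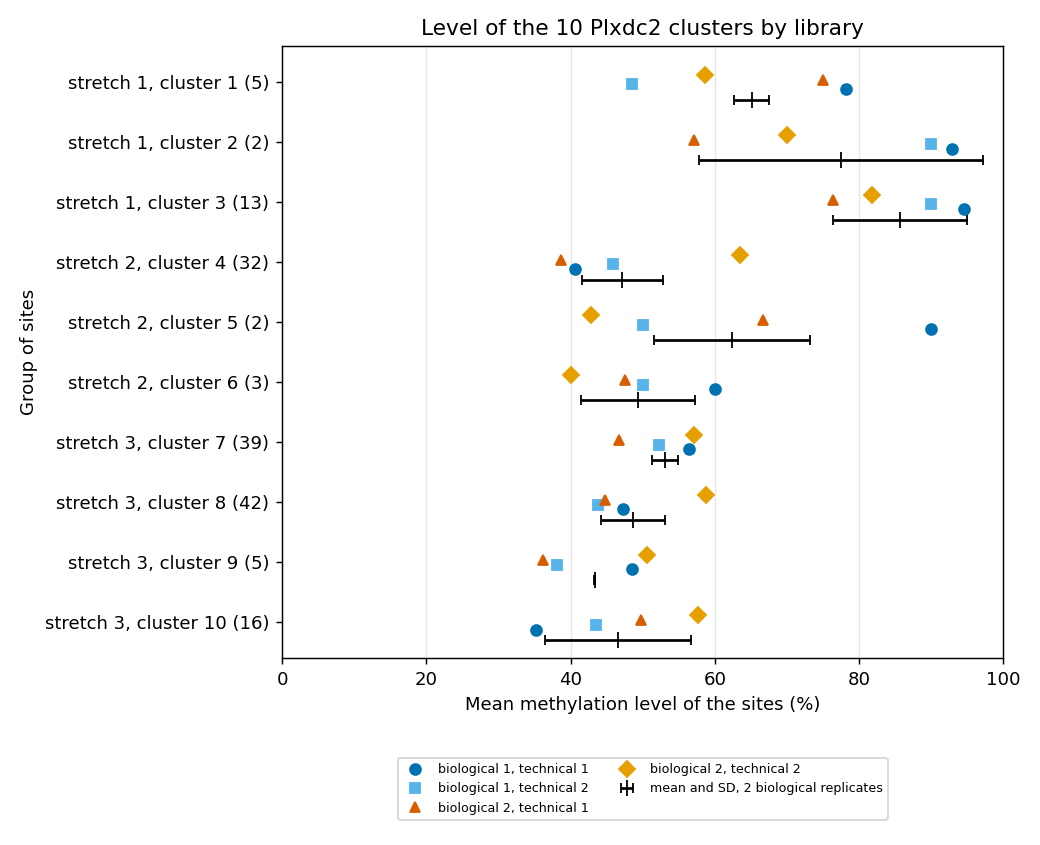
Mean level of the sites (horizontal axis, percent) in the 10 clusters of Plxdc2 sites, with the number of sites in brackets; coloured symbols are the 4 Tet2-/- libraries, and the black tick and bar are the mean and SD of 2 biological replicates. The order of the libraries differs between clusters: biological replicate 1, technical replicate 1 is the highest in all 3 clusters of stretch 1 and the lowest in the last cluster of stretch 3.

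The gap between the means of the biological replicates changed sign along the gene. In stretch 1, replicate 1 had the higher mean by 10.4 points, and in stretches 2 and 3 replicate 2 had the higher mean by 5.13 and 3.87 points. Without library 2b these 2 gaps had the opposite sign: library 2a alone, at 40.9% and 45.9%, was below the replicate 1 means of 45.6% and 47.8%. At 11 of the 20 sites of stretch 1 both libraries of replicate 1 lay above both of replicate 2, and at 0 sites the reverse held. Both libraries of replicate 2 were above at 7 of 37 sites and below at 3 in stretch 2, and above at 28 of 102 sites and below at 8 in stretch 3. In the whole table they were above at 15.7% of sites and below at 14.7%. Over all 159 sites the libraries of the replicates did not overlap at 57 sites (35.8%), against 30.4% of sites in the whole table, so this share was near the background. The last cluster of stretch 3, 16 sites from 16682442 to 16682582, stood at 35.3%, 43.5%, 49.8% and 57.7% in 1a, 1b, 2a and 2b, and there replicate 2 was above at 10 sites and below at 0. The first cluster of that stretch, with 39 sites, went the other way, with replicate 2 lower by 2.49 points, above at 4 sites and below at 6. Neighbouring sites are not separate observations, so these and the other counts of sites are a description.

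Technical replicates differed as much as biological ones. At the sites of Plxdc2, libraries of a technical pair differed by 15.5 points on average and libraries of a biological pair by 15.3 points, against 13.5 points for both kinds in the whole table. Library 2b was the highest at 70 of 159 sites (44.0%), against 26.8% in the whole table, and library 2a was the lowest at 62 (39.0%), against 27.3%. Both are technical replicates of the same biological replicate. Library 2b alone was the highest at 0 of 20 sites in stretch 1, where it tied with another library at 2 sites, at 24 of 37 in stretch 2 and at 46 of 102 in stretch 3. If the second number of the column names is the biological replicate, the mean level of the gene stays the same and its SD becomes 3.44 points.

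**Figure D4:**
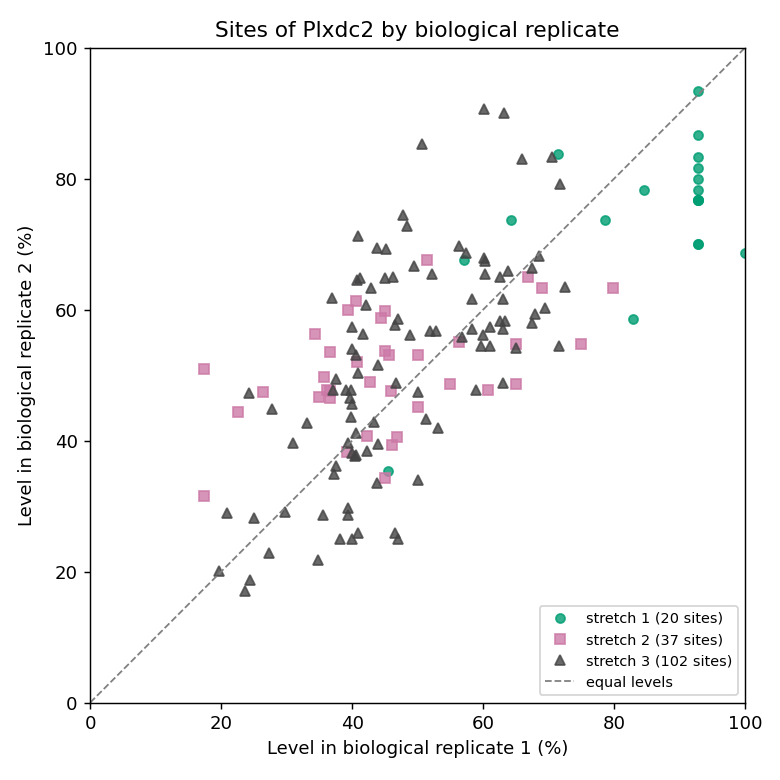
Level in percent of each of the 159 Plxdc2 sites in biological replicate 1 (horizontal axis) and biological replicate 2 (vertical axis), each the mean of 2 technical replicates; the dashed line marks equal levels. Replicate 2 is the higher at 4 of 20 sites of stretch 1, at 22 of 37 of stretch 2 and at 56 of 102 of stretch 3. In the whole table it is the higher at 4244 of 8492 sites, so the share in stretch 3 (54.9%) is near the background.

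Levels of close sites moved together between libraries. After each site's own mean and the mean of each library over the gene were removed, 253 pairs of sites 1 to 10 bases apart gave a Pearson's r of 0.668. The correlation was 0.270 over 779 pairs of sites 11 to 50 bases apart and -0.0271 over 1418 pairs 51 to 150 bases apart. The same bins gave 0.758, 0.506 and 0.249 over the whole table, where library means over all sites were removed. With the library means of the gene kept, the 3 values were 0.727, 0.432 and 0.184, so the sign at the longest distances depended on that step. Pairs share sites, libraries and very likely molecules, and the values are a description. How far reads that cover both sites of a pair set these values was not tested. Within stretches 1, 2 and 3 taken one at a time, with library means over that stretch removed, the correlation at 1 to 10 bases was 0.717, 0.625 and 0.578. At 11 to 50 bases it was -0.0923, 0.215 and 0.200 in the same order, each below the 0.270 of the gene. At 51 to 150 bases it was -0.139, 0.00155 and -0.120.

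The order of site levels was shared in part between libraries. Across the 159 sites, Pearson's r between libraries ran from 0.475 (1b with 2a) to 0.750 (1a with 2a), against 0.759 to 0.801 across the whole table. Sites are not independent replicates. Within stretch 2 the correlation ran from -0.166, between the technical partners 2a and 2b, to 0.680, between 1a and 2a.

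Plxdc2 was then set beside the 3 genes with the nearest number of sites. Anapc10, which encodes a substrate recognition subunit of the anaphase-promoting complex, had 173 sites at 83.8% ± 4.80 (SD, n = 2), and 155 of them (89.6%) were at 50% or more in every library. Zfp369, a zinc finger protein, had 150 sites at 32.5% ± 4.15, and the olfactory receptor gene Olfr1033 had 149 sites at 34.1% ± 5.26 (SD, n = 2 for both), with 0 sites at 50% or more in every library. The level of Plxdc2 lay between these genes, outside the range of libraries of each. Spans of the zinc finger and olfactory receptor families have close relatives with which they may share reads.

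The 3 genes of 20 or more sites with the most similar level in the 4 libraries were Inpp4b, Mctp1 and Zfand6. Likeness was measured as the root mean square difference from Plxdc2 over 4 libraries, which was 3.41, 3.99 and 5.15 points. Inpp4b, a phosphoinositide phosphatase, had 508 sites at 51.7% ± 0.844, Mctp1, a calcium-binding membrane protein, had 186 sites at 51.6% ± 1.55, and Zfand6, a zinc finger protein that binds ubiquitin, had 103 sites at 51.4% ± 7.56 (SD, n = 2 for each). These levels and that of Plxdc2 were within the range of each other's libraries. Library 2b was the highest in all 4 genes, as it was in 22 of the 45 genes with 20 or more sites. The choice of genes used these same library values, so the shared level and highest library follow in part from it. Regions of 10 or more sites ran from 25.7% to 94.5% in Inpp4b, from 17.4% to 74.1% in Mctp1 and from 47.2% to 72.4% in Zfand6, beside 48.2% to 79.7% in Plxdc2.

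**Figure D5:**
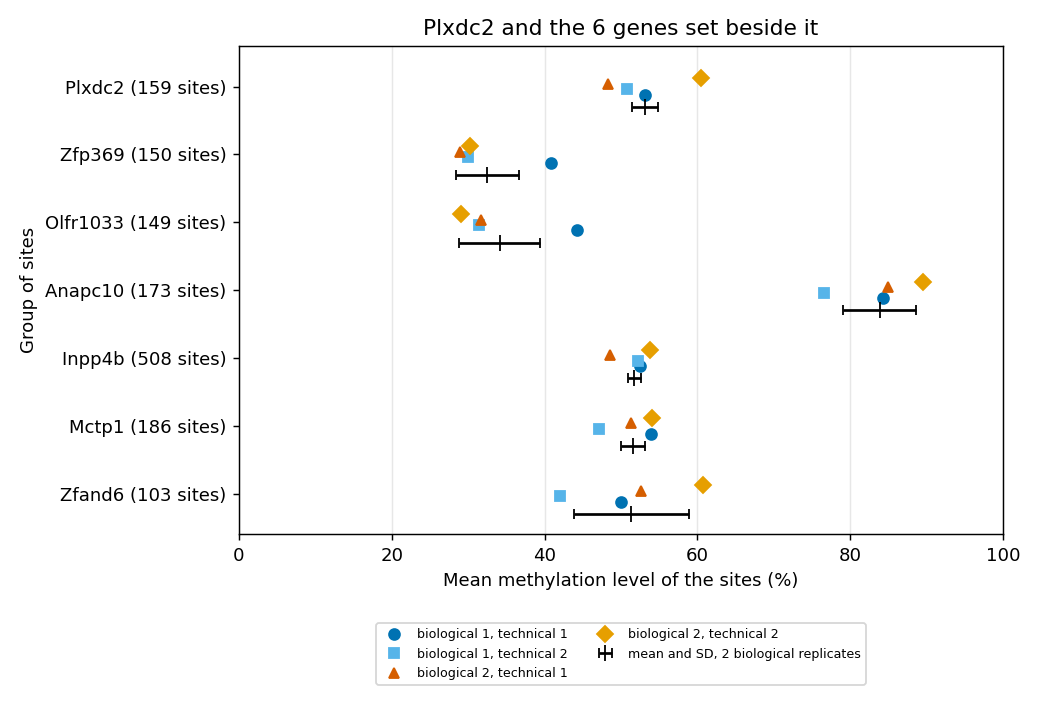
Mean level of the sites (horizontal axis, percent) in Plxdc2, of the 3 genes nearest to it in number of sites (Zfp369, Olfr1033, Anapc10) and of the 3 nearest in level (Inpp4b, Mctp1, Zfand6); coloured symbols are the 4 Tet2-/- libraries, and the black tick and bar are the mean and SD of 2 biological replicates. Plxdc2 at 53.2% lies beside the last 3 genes and apart from Zfp369 at 32.5% and Anapc10 at 83.8%.

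Genes related to Plxdc2 by structure or ligand were looked up in the table. The list of 41 genes held its relative Plxdc1, the ligand gene Serpinf1 and other proteins proposed to bind that ligand (Pnpla2, Rpsa, Lrp6). It also held cortactin (Cttn), nidogens, anthrax toxin receptors, plexins, neuropilins and semaphorins. All 41 were found in the annotation, and 0 had a listed site. Of 49997 RefSeq gene spans, 110 (0.22%) had one, so that 0 of 41 was near the background. A gene without listed sites cannot be told apart here from a gene with too few reads, with levels under 10% or with sites not chosen by the authors. Of 12 mast cell markers, 2 (Cpa3 and Il1rl1) had listed sites, and of 15 markers of macrophages, neutrophils, basophils, B cells and endothelial cells 0 had any, which was also near that background for the latter. The table holds no expression levels, so the identity of the cells could not be checked with them.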

How the data were processed

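RNA bisulfite libraries were made from DNase-treated poly(A) RNA with unmethylated lambda RNA added as a control, prepared as stranded libraries and sequenced as paired-end reads, per the labels' protocols. The submitters' processing notes name mm10 and GRCm38. Not given in the sources used here are the aligner, site caller, coverage minimum, conversion rate and rule for choosing sites. Per site and library, the deposited values are methylation rates, each a fraction between 0 and 1 per the file headers, which were multiplied to percent. Columns were matched to samples by reading the first number of their names as the biological replicate and the second as the technical one; the values cannot settle this.

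Levels are means of 2 biological replicates, each averaged over its technical pair, with their SD. Gene spans came from RefSeq GRCm38 patch 6. Sites up to 500 bases apart formed stretches and up to 50 bases clusters. Named were the highest and lowest site of each stretch, the site with the widest replicate gap, 3 genes nearest in number of sites and 3 nearest in level; further sites were picked with their values known. The members, lists and settings were chosen with earlier results of these data known. With levels that the choice of sites used, and 4 libraries, no significance test was run. The calculation of the neighbour correlation was checked on simulated data. Python 3.11.15, numpy 2.4.6, pandas 2.3.3 and matplotlib 3.10.9 were used.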

Additional observations from a re-analysis of the deposited data

Results flagged for a closer look

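A search for single libraries apart from the remaining 3 covered 35 values, which overlap because windows, clusters and stretches share sites. It found 2, where chance gives about 1 in 20. The values were the gene, its stretches, clusters and windows, and the genes set beside it. In stretch 2 of Plxdc2, the 11 sites of the window from 16676829 to 16676878 stood at 66.0% in library 2b and between 32.4% and 35.2% in the other 3, a gap of 0.916 of the range over libraries. In Zfp369, library 1a stood at 40.8% and the other 3 libraries between 28.9% and 30.2%, with a gap of 0.885 of the range.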

How the results depend on the processing

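The level of 53.2% became 55.8% with sites at 20% or more in every library, 44.9% over the sites with no other listed site within 10 bases, 59.2% with every stretch counted once and 59.2% without stretch 3. Leaving out each biological replicate, or each library (added after seeing the data), gave 50.1% to 56.2% for the gene, 74.5% to 84.9% for stretch 1, 43.3% to 53.1% for stretch 2 and 46.9% to 52.7% for stretch 3; the lowest and highest values for the gene and for stretches 2 and 3 came without library 2b and without library 2a. Stretch 3 was at 52.5% with the 20% minimum. The number of sites was 33 with positions within 10 bases merged and 5 without close neighbours, and stretches numbered 6 when joined up to 100 bases. Without stretch 3 the neighbour correlation was 0.773 at 1 to 10 bases, 0.455 at 11 to 50 and 0.264 at 51 to 150. These values lay above those of stretches 1 and 2 taken one at a time. Over all stretches with library means kept, the correlation was 0.432 at 11 to 50 and 0.184 at 51 to 150. Leaving out a biological replicate gave 0.578 to 0.724, 0.192 to 0.229 and -0.0913 to 0.0521. The cause of these changes was not tested. Leaving out a biological replicate, or reading the column names the other way, cannot move a level by more than its SD, so these 12 values say nothing about stability. Of the other 45 alternative values, 24 stayed within the replicate SD, or within 1.5 times for counts. No paired analysis was possible because a fit blocked by replicate number needs both genotypes, and only Tet2-/- libraries were used. Read depth was not analysed, and its effect on these levels is unknown.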
